A study of Mus musculus with 28 samples.

Results

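Matricellular proteins are secreted into the extracellular matrix and act more on how cells adhere, move and signal than as structural fibers. The genes of 9 such proteins were followed here through skin wound healing: Fn1 (fibronectin), Tnc (tenascin-C), Thbs1, Thbs2 and Thbs4 (thrombospondins), Sparc (osteonectin), and Ccn1, Ccn2 and Ccn4 of the CCN family, known earlier as Cyr61, Ctgf and Wisp1. They were taken by symbol from a raw count table of 29068 genes, and all 9 were among the 18107 genes with enough reads to be tested. The skin came from 8-week-old MLKL+/+ mice of both sexes on a C57BL/6J background, which are wild type for the necroptosis effector MLKL, and no group received an agent. A round wound was punched through the back skin down to the fascia and healed without treatment. The tissue taken held scab and wound edge epithelium besides the wound itself, so each library is a mixture of cell types. There were 4 libraries at each of 7 time points labelled Day0, Day3, Day5, Day7, Day10, Day12 and Day14, 28 libraries in all. The design text treats Day0 as the control, whereas the study numbers its time points from 1, with wounds made on that first day, and how Day0 maps onto this numbering is not stated. The design text speaks of 5 repeats a day, and the labels number 4 replicate samples a day without naming animals, so that the P values measure the spread between these samples, which may be technical. Each library was made from a whole piece of tissue, and fewer cells of a type and less RNA per cell cannot be told apart.

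Fibronectin and tenascin-C form part of the provisional matrix over which cells move into a wound, and tenascin-C is known for being scarce in resting adult skin. Thrombospondin-1 is released from platelets and made by cells of the early wound, activates latent TGF-beta and restrains vessel growth, and thrombospondin-2 is a related inhibitor of vessel growth made mainly by fibroblasts. Thrombospondin-4 forms pentamers and is abundant in tendon and muscle. SPARC binds collagen and takes part in its assembly. CCN1 and CCN2 are short-lived regulators of adhesion, fibroblast behaviour and fibrosis under the control of YAP/TEAD, SRF and TGF-beta signals, and CCN4 is a Wnt-induced member of the same family. Cells bind these proteins through integrins, syndecans, CD36, CD47 and LRP1.

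Depth was even, from 36706513 to 40655764 counts on genes per library (median 39499595). The Day0 libraries were not alike. Their biological coefficient of variation was 26.5%, against 5.77% to 10.8% on the other days. Day0 replicates 2 and 3 lay 0.77 apart (root mean square log2 distance over the most variable genes), close to the 0.63 to 0.76 of pairs on other days. The other Day0 pairs lay 1.47 to 1.65 apart. The skeletal muscle markers (5 of 5 measured) summed to 26363, 16381, 16701 and 27464 CPM (counts scaled to the size of the library) in Day0 replicates 1 to 4 and to 3649 to 4743 CPM on Day3. The dermal fibroblast markers (7 of 7 measured) summed to 25545, 57236, 54994 and 14698 CPM in the same Day0 libraries. Markers of skin were present on all days, and basal keratinocyte markers summed to 3750.0 to 7937 CPM on Day0 and 4659 to 5835 on Day14. Myofibroblast markers summed to 610.2 to 1069 CPM on Day0, 368 to 383 on Day3 and 1006 to 1060.2 on Day7, endothelial markers to 377 to 515 and macrophage markers to 809.9 to 1204 on Day0, against 767 to 835 and 2028 to 2129 on Day3. Adipocyte markers stood at 1317 to 1672 CPM on Day0 and 1270.5 to 1472 on Day3, hair shaft markers at 53.9 to 411 and 0.837 to 1.41, and wound edge keratinocyte markers at 468 to 709 and 2454 to 2984. The hair shaft markers (5 of 5 measured) stood at 179 to 274 CPM on Day7 and 54.3 to 63.3 on Day10. They stood at 1122 to 1532 CPM on Day12 and 2075 to 2704 on Day14. On Day10, 4 of the 5 were called lower than Day0. The other, Krt85, stood at 18.1 FPKM on Day0 and 21.8 on Day10 and made up most of the Day10 sum. All 6 comparisons with Day0 share these 4 libraries, and values without single Day0 libraries are given where they change a call.

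On a scale per gene length (FPKM, counts scaled to the gene's length and the library's total), Sparc was by far the most abundant member, with a mean of 2324 FPKM over the 28 libraries and 0.616% of all counts. It was followed by Fn1 (144.8 FPKM), Thbs1 (100.3), Tnc (77.2), Thbs2 (68.8), Ccn1 (30.8), Thbs4 (19.97), Ccn2 (17.0) and Ccn4 (7.99). Values across days are given below as CPM with TMM library sizes, as mean ± SD of 4 libraries, and differences as log2 fold changes ± SE of edgeR's quasi-likelihood test. A gene is called changed where its P value adjusted over all 18107 genes (Benjamini-Hochberg) is under 0.05. Over all 7 days together, the joint test was passed by all 9 members, from Thbs1 (adjusted P = 8.72e-19) to Ccn2 (adjusted P = 0.0455).

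**Figure D1:**
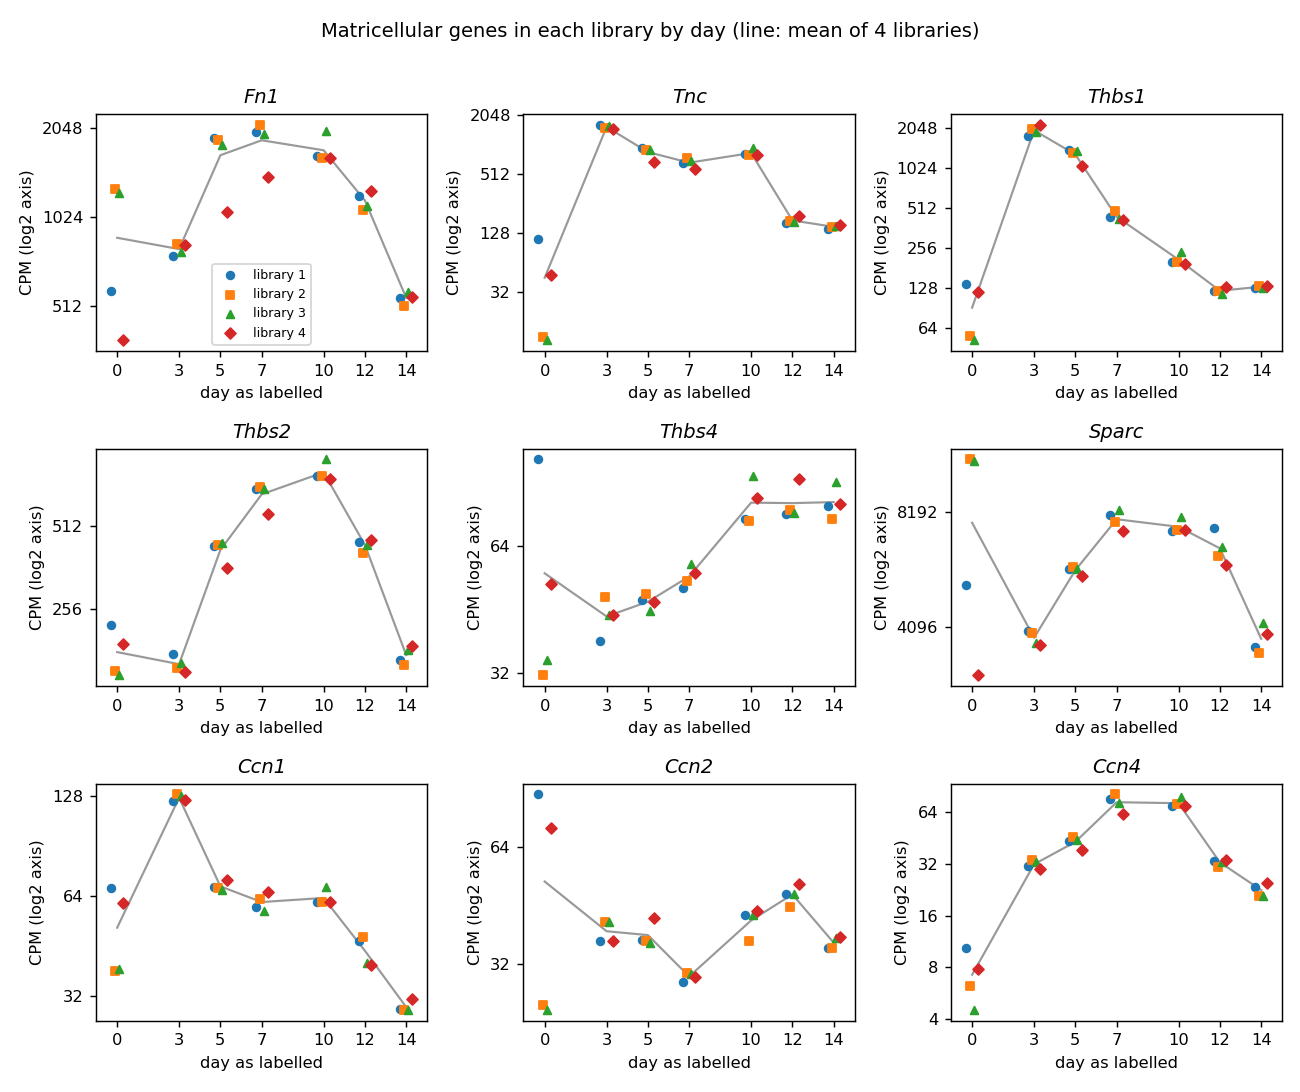
CPM (log2 axis, a different range in each panel) of the 9 genes in each of the 28 libraries against the day as labelled, with 1 symbol per replicate number and a line through the mean of the 4 libraries. Tnc, Thbs1 and Ccn1 were highest on Day3, Fn1, Sparc and Ccn4 on Day7 and Thbs2 on Day10, and the Day0 libraries spread more than those of other days.

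The members did not share 1 time course. Against Day0, 4 of the 9 were called higher and 1 lower on Day3, where 31.8% of all genes tested were called higher and 34.8% lower. On Day5, 6 were called higher and 3 were not called, with 29% and 30.6% of all genes. On Day7, 5 were called higher and 1 lower, with 25.6% and 24.8% of all genes. On Day10, 7 were called higher and 2 were not called, with 23.5% and 26.9% of all genes. On Day12, 4 were called higher and 5 were not called, with 21.7% and 25.6% of all genes, and on Day14, 4 were called higher and 3 lower, with 28.2% and 34.5% of all genes. The balance over all genes depended on the scaling, since 45.8% of the calls on Day12 and 45.0% on Day14 were higher, against 67.4% and 56.2% without composition normalization. The median log2 fold change of the members was 0.93 on Day5, 1.10 on Day7, 0.99 on Day10 and 0.42 on Day12, against -0.02, 0.002, -0.02 and -0.04 over all genes. It was -0.13 on Day3 and -0.04 on Day14, against -0.03 and -0.06 over all genes. When only the 8 libraries of each comparison were fitted, 5, 4, 5, 5, 3 and 4 members were called in either direction on the 6 days, where 62.9%, 49.3%, 40.1%, 43.6%, 39.6% and 57.2% of all genes were. By the study's criteria (an unadjusted P under 0.05 with a log2 fold change above 1.5), 3, 3, 4, 3, 2 and 2 members were higher on Day3, Day5, Day7, Day10, Day12 and Day14, where 6.5%, 5.61%, 4.66%, 4.33%, 3.89% and 5.15% of all genes were.

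**Figure D2:**
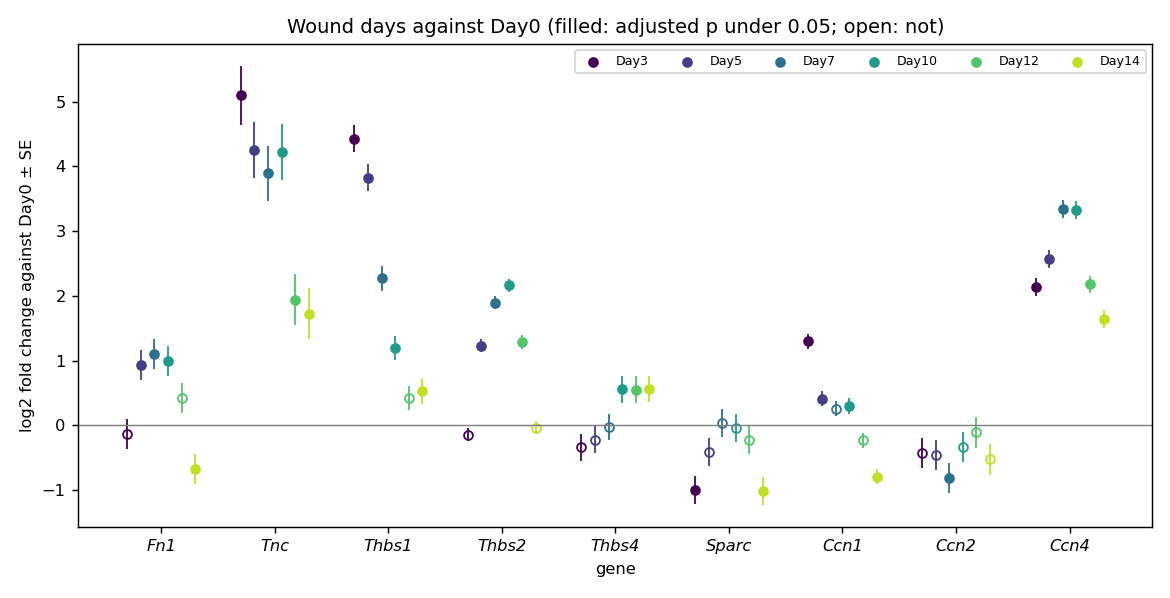
Log2 fold change of each gene against Day0 with its SE, for the 6 wound days (4 libraries against 4, edgeR), with filled points for an adjusted P under 0.05 and open points for the rest. Tnc and Ccn4 lie above 0 on all 6 days, Thbs1 declines from 4.43 on Day3 to 0.42 on Day12, and Thbs2 climbs to 2.16 on Day10.

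Fibronectin transcripts were called higher than Day0 from Day5 to Day10 and lower on Day14. Fn1 (chromosome 1, 71585473 to 71653280, minus strand, GRCm38.p6, which is the mm10 build) stood at 576, 1277, 1236 and 390.4 CPM in Day0 replicates 1 to 4, with replicates 2 and 3 well above the others. It was at 796 ± 36.8 CPM on Day3 (log2 fold change -0.13 ± 0.23, not called), inside the Day0 range. On Day7 the 4 libraries read 1985, 2108, 1966 and 1399 CPM, all above those of Day0, and the change of 1.10 ± 0.23 (2.14-fold) was called (adjusted P = 0.000262). Day5 (0.93 ± 0.23, adjusted P = 0.00108, and 0.0699 when only the 8 libraries of Day0 and Day5 were fitted) and Day10 (0.99 ± 0.23, adjusted P = 0.000815) were called higher as well, and only Day10 of these was free of overlap with Day0. On Day12 the value of 1164 ± 78.1 CPM was not called (adjusted P = 0.137). On Day14 the libraries lay from 512 to 570.3 CPM and the gene was called lower (-0.68 ± 0.23, adjusted P = 0.0126), within the range of Day0. That last call was lost without Day0 replicate 2 (-0.39, adjusted P = 0.144) or replicate 3 (-0.41, adjusted P = 0.125), and the Day12 value was called without replicate 2 (0.67, adjusted P = 0.0195) or replicate 3 (0.64, adjusted P = 0.0276). The order of the day means was Day7, Day10, Day5, Day12, Day0, Day3 and Day14, and of these neighbours only Day3 and Day14 did not overlap. The dermal fibroblast markers summed to 21839 to 23946 CPM on Day3, 55902 to 56934 on Day7 and 16388 to 19578 on Day14. Of the 7, 1 was called higher and 5 lower than Day0 on Day3, 3 higher on Day7 and 7 lower on Day14, and their part in the result was not tested.

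Tenascin-C had the largest change of the members. Tnc (chromosome 4, 63959785 to 64047015, minus strand) read 110.5, 11.2, 10.4 and 47.7 CPM in Day0 replicates 1 to 4 and 1627, 1487, 1568 and 1477 CPM in those of Day3. The Day3 mean was 34.3-fold that of Day0 (5.10 ± 0.45, adjusted P = 1.02e-10), and even the highest Day0 library lay below every library of the wound days. The mean was 854 ± 123 CPM on Day5, 666 ± 67.4 on Day7, 836 ± 67.8 on Day10 and 172 ± 14.2 on Day12. On Day14 it was still 148 ± 5.79 CPM, called higher than Day0 at 1.72 ± 0.40 (adjusted P = 0.000439). With all libraries fitted together, the 1 called step between wound days was the fall from Day10 to Day12, from 791 to 935 CPM in the 4 libraries of the first day to 163 to 193 CPM in those of the second (-2.28 ± 0.40, adjusted P = 3.76e-05). Over that step 3 of 4 wound edge keratinocyte markers were called lower (Krt16 from 253 to 25.9 FPKM and Krt6b from 151 to 13.7). The other, Krt17, was called higher (from 223 to 531 FPKM). The list summed to 1279 to 1444 CPM on Day10 and 897 to 1013 on Day12. The endothelial markers, 5 of 5 called lower, summed to 615 to 720.2 CPM on Day10 and 372 to 400.0 on Day12, and the part of these markers in the fall was not tested. The difference between Day3 and Day5 (-0.85 ± 0.38, adjusted P = 0.109) was not called although the libraries did not overlap. When only the 8 libraries of these 2 days were fitted, it was called (-0.85, adjusted P = 9.57e-06). Without Day0 replicate 1, the highest of its group, the log2 fold change was 6.11 on Day3 and 2.77 on Day14.

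The 250 bases before the start of Tnc are shown because it had the highest fold change (RefSeq, GRCm38.p6, chr4:64047016-64047265, minus strand, 5′ to 3′). Capitals mark a TATAAA box on the gene's strand at positions -126 to -121.
Tnc: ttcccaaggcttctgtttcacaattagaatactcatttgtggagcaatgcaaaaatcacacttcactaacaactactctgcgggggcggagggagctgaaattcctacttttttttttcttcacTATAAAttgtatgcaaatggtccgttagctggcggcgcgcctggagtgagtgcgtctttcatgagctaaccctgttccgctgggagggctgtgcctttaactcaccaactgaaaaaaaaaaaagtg

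Tnc and Fn1 code for proteins of the same provisional matrix, but their ratio moved over time. The ratio of their FPKM within a library was 0.212, 0.00972, 0.00935 and 0.135 in Day0 replicates 1 to 4. It was 2.38, 1.97, 2.23 and 1.98 in those of Day3, the 1 day on which Tnc was the more abundant transcript in every library. It was 0.582 ± 0.0765 on Day5, 0.399 ± 0.0370 on Day7, 0.536 ± 0.0153 on Day10 and 0.164 ± 0.0110 on Day12. Against Day0 the log2 ratio was higher on Day3 (by 5.73), Day5, Day7, Day10 and Day14 (by 2.90) without overlap between libraries (exact two-sided permutation test, P = 0.0286, the smallest that 4 against 4 allows, adjusted P = 0.0373 over 30 ratio tests), and on Day12 the libraries overlapped (adjusted P = 0.306). With single Day0 libraries left out, the log2 difference ran from 5.03 to 6.53 on Day3 and from 2.20 to 3.70 on Day14, lowest without replicate 3 and highest without replicate 1.

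Of the thrombospondins, Thbs1 peaked early, Thbs2 late, and Thbs4 differed little between days. Thbs1 (chromosome 2, 118111876 to 118127133, plus strand) read 138, 56.0, 52.1 and 121 CPM on Day0 and 1799.9, 2014, 1919 and 2186 CPM on Day3. Its Day3 mean was 21.6-fold that of Day0 (4.43 ± 0.21, adjusted P = 2.84e-16), with no overlap. From there it fell at each sampled day through 1301 ± 157 CPM on Day5, 442 ± 32.6 on Day7 and 210.4 ± 19.6 on Day10 to 123 ± 6.58 on Day12, and the 4 steps were called (-0.61, -1.56, -1.07 and -0.78, the highest adjusted P = 0.0173). The first of these was lost without Day5 replicate 4 (adjusted P = 0.0556). On Day12 and Day14 Thbs1 lay within the Day0 range, at 0.42 ± 0.19 (adjusted P = 0.0663, not called) and 0.52 ± 0.19 (adjusted P = 0.0168, called). The Day14 call was lost without Day0 replicate 2 (0.39, adjusted P = 0.0528) or replicate 3 (0.38, adjusted P = 0.0505), and the Day12 value was called without Day0 replicate 1 (0.70, adjusted P = 0.00113) or replicate 4 (0.60, adjusted P = 0.0105). Platelet markers (5 of 5 measured) summed to 60.8 to 92.5 CPM on Day0, 295 to 303 on Day3 and 21.3 to 23.5 on Day14, a sum made up mostly of Pf4 (124, 399 and 25.7 FPKM). On Day3, 4 of the 5 were called higher and Gp1bb was not (0.460 FPKM on Day0 and 0.424 on Day3), and on Day14, 2 were called higher and 1, Pf4, lower. Neutrophil markers (5 of 5 measured, 1 of them at 0 throughout Day0) summed to 14.6 to 40.5 CPM on Day0 and 4061 to 5177 on Day3. Their part in the result was not tested.

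Thbs2 (chromosome 17, 14665500 to 14694262, minus strand) did not join this early rise. It read 224, 153, 148 and 191 CPM on Day0 and 176, 156, 164 and 151 CPM on Day3, and the ranges overlapped (-0.14 ± 0.10, adjusted P = 0.206, and -0.23, adjusted P = 0.0282, called lower, with upper quartile factors). It climbed to 420.1 ± 39.1 CPM on Day5, 668 ± 66.4 on Day7 and 802 ± 61.0 on Day10, where the libraries read 777, 777, 893 and 761 CPM. The Day10 change was 2.16 ± 0.10 (4.48-fold, adjusted P = 1.71e-15), and no library of Day5, Day7, Day10 or Day12 overlapped those of Day0. It then fell to 438 ± 20.5 CPM on Day12 and 175 ± 12.7 on Day14, where it was back in the Day0 range (-0.04 ± 0.10, adjusted P = 0.779). The falls to Day12 (-0.87 ± 0.10, adjusted P = 6.37e-08) and to Day14 (-1.32 ± 0.10, adjusted P = 6.23e-11) were called. The step from Day7 to Day10 (0.26 ± 0.10, adjusted P = 0.0433) was called only just, and was lost without Day7 replicate 1, 3 or 4 or any 1 of Day10 replicates 1, 2 and 3 (adjusted P from 0.0516 to 0.149).

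The same window of the Thbs2 gene is shown because its curve ran late where that of Thbs1 ran early (GRCm38.p6, chr17:14694263-14694512, minus strand, 5′ to 3′). Capitals mark TGTCTG, the reverse complement of the SMAD motif CAGACA, at positions -67 to -62 and -44 to -39.
Thbs2: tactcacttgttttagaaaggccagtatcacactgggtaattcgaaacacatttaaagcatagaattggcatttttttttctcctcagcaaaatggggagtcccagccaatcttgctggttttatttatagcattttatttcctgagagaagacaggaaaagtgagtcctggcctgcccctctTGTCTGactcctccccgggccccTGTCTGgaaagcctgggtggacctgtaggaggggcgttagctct

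The ratio of Thbs1 to Thbs2 FPKM within a library was 0.622, 0.371, 0.357 and 0.642 in Day0 replicates 1 to 4 and 10.4, 13.03, 11.8 and 14.6 in those of Day3. It was 3.13 ± 0.124 on Day5, 0.674 ± 0.0591 on Day7 and 0.266 ± 0.00436 on Day10, and stood at 0.284 ± 0.0146 on Day12 and 0.767 ± 0.0598 on Day14. The Day10 libraries, from 0.261 to 0.272, were all below Day0 and the Day3 libraries all above it (log2 differences -0.85 and 4.69, exact permutation test, adjusted P = 0.0373 for each). Thbs1 was the more abundant of the pair in all libraries of Day3 and Day5 and in 0 of those on the other days.

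Thbs4 (chromosome 13, 92751586 to 92794818, minus strand) had the narrowest range of the thrombospondins, 1.87-fold between its highest and lowest day mean against 21.6-fold for Thbs1 and 4.95-fold for Thbs2. It read 102, 31.6, 34.2 and 51.9 CPM on Day0, where replicate 1 was the highest of all 28 libraries. It was 43.5 ± 4.24 CPM on Day3 and 54.1 ± 3.05 on Day7, and 80.9 ± 9.45, 80.7 ± 7.70 and 81.1 ± 6.83 on Day10, Day12 and Day14. The last 3 days were called higher than Day0 (0.56 ± 0.21, 0.55 ± 0.21 and 0.56 ± 0.21, adjusted P = 0.0258, 0.0285 and 0.0196), but their libraries overlapped those of Day0. Without replicate 1 the 3 values were 1.05, 1.06 and 1.13, and without replicate 2 they were 0.37, 0.37 and 0.42 (adjusted P = 0.113, 0.117 and 0.0601), and the 3 calls were lost. The calls were also lost without Day0 replicate 3 (adjusted P from 0.0596 to 0.115), without Day10 replicate 3 for Day10 (adjusted P = 0.0755), without Day12 replicate 4 for Day12 (adjusted P = 0.0812) and without Day14 replicate 3 for Day14 (adjusted P = 0.0535). The days not called moved in both directions when a Day0 library was left out. Without replicate 2 or 3, Day3 was called lower (-0.53 and -0.51, adjusted P = 0.0165 and 0.027), and without replicate 1, Day5 and Day7 were called higher (0.28 and 0.46, adjusted P = 0.0457 and 0.00174). Among the wound days, the step from Day7 to Day10 was called (0.58 ± 0.21, adjusted P = 0.031) with no overlap of libraries, 50.8 to 57.9 against 73.2 to 93.5 CPM. This call was lost without any 1 of Day7 replicates 1, 2 and 4 and Day10 replicates 3 and 4 (adjusted P from 0.0505 to 0.0908). Tendon markers (4 of 4 measured) summed to 103 to 162 CPM on Day0, 15.3 to 19.6 on Day3 and 66.0 to 70.8 on Day10. They stood at 112 to 139 CPM on Day12 and 64.8 to 84.7 on Day14. The skeletal muscle markers summed to 3849 to 4209 CPM on Day7 and 7314 to 9356 on Day10. On Day12 they were at 5377.5 to 6055 CPM and on Day14 at 4023 to 5023. The part of these markers in the Thbs4 result was not tested. Within a library, the ratio of Thbs4 to Thbs2 FPKM fell from 0.381 to 0.845 on Day0 to 0.135 to 0.179 on Day7 (adjusted P = 0.0373, exact permutation test), and it was 0.790 to 0.917 on Day14.

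**Figure D3:**
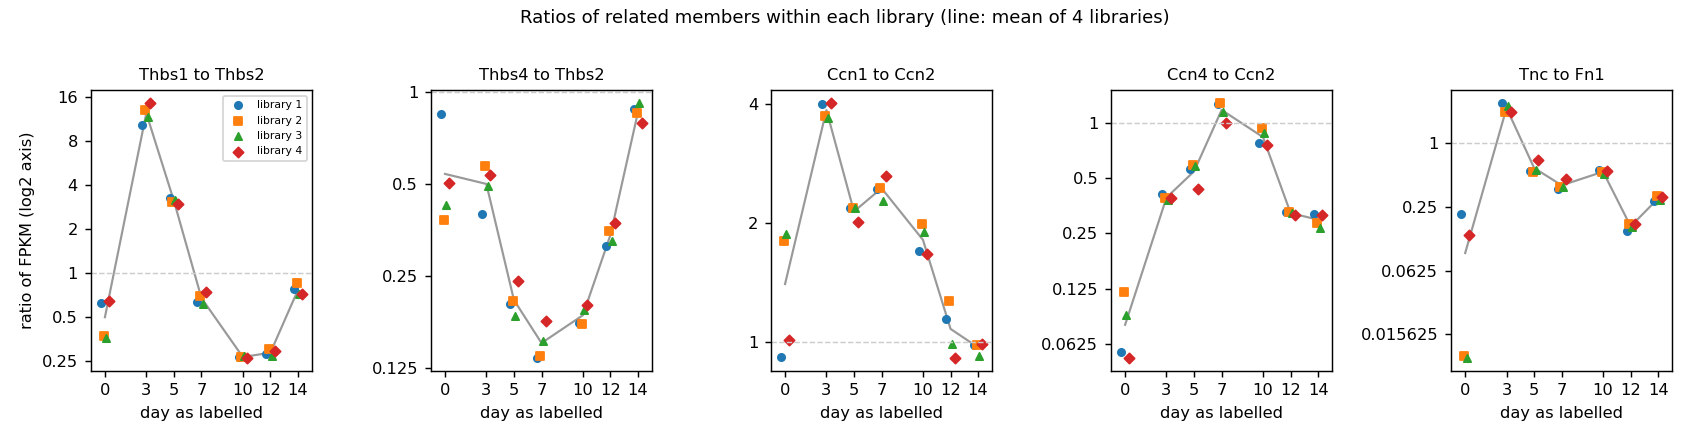
Ratio of the FPKM of 2 members within each library (log2 axis) against the day as labelled, with 1 symbol per replicate number, a line through the mean of 4 libraries and a dashed line at 1. Thbs1 to Thbs2 goes from 10.4 to 14.6 on Day3 to 0.261 to 0.272 on Day10, and Tnc to Fn1 is above 1 on Day3 alone.

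Sparc was the most abundant member per length on every day and was called lower than Day0 on Day3 and Day14. It (chromosome 11, 55394159 to 55420080, minus strand) read 5251, 11236, 11118 and 3057 CPM in Day0 replicates 1 to 4, a 3.68-fold range within the group. On Day3 the libraries lay from 3661 to 3999.9 CPM and on Day14 from 3489.8 to 4194 CPM, and both days were called lower (-1.001 ± 0.22, adjusted P = 0.000224, and -1.01 ± 0.22, adjusted P = 0.000221). Day0 replicate 4 was below all libraries of both days, so that the ranges overlapped. Between them Sparc reached 7832 ± 421 CPM on Day7, 7482 ± 294 on Day10 and 6571 ± 645 on Day12, and no day from Day5 to Day12 was called against Day0. Among wound days, the rise from Day3 to Day5 (0.59 ± 0.22, adjusted P = 0.0472) and the fall from Day12 to Day14 (-0.79 ± 0.22, adjusted P = 0.0042) were called, each without overlap. The first was lost when any 1 library of either day was left out (adjusted P from 0.0626 to 0.12) and with DESeq2's size factors (adjusted P = 0.0511). Against Day0, Day5 was called lower without Day0 replicate 1 (-0.54, adjusted P = 0.031) or replicate 4 (-0.66, adjusted P = 0.000196), and Day12 without replicate 4 (-0.47, adjusted P = 0.00755). Over the 4 Day0 libraries the order of Sparc was that of the dermal fibroblast markers given above, replicates 2 and 3 high, then 1, then 4.

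The 3 CCN genes behaved differently from each other. Ccn1 (chromosome 3, 145646971 to 145649985, minus strand) read 67.7, 38.1, 38.5 and 61.2 CPM on Day0 and 124, 129, 128 and 124 CPM on Day3, all above Day0 (1.30 ± 0.12, 2.46-fold, adjusted P = 1.77e-10). By Day5 it had fallen to 68.4 ± 2.10 CPM, a called step of -0.89 ± 0.12 (adjusted P = 1.92e-06). It stood at 61.3 ± 3.60 CPM on Day7 and 63.1 ± 3.47 on Day10, and then fell in 2 called steps to 43.8 ± 4.47 on Day12 (-0.53 ± 0.12, adjusted P = 0.000698) and 29.6 ± 1.07 on Day14 (-0.56 ± 0.12, adjusted P = 0.000368). On Day14 its 4 libraries lay from 29.1 to 31.3 CPM, below every Day0 library (-0.79 ± 0.12, 1.73-fold lower, adjusted P = 1.83e-06). The smaller changes on Day5 (0.41 ± 0.12, adjusted P = 0.0036, and 0.0816 when only the 8 libraries of the 2 days were fitted) and Day10 (0.30 ± 0.12, adjusted P = 0.0368) were called with overlapping libraries. The Day10 call was lost without Day0 replicate 2 (adjusted P = 0.176) or replicate 3 (adjusted P = 0.174), and without Day10 replicate 3 (adjusted P = 0.0953) or replicate 4 (adjusted P = 0.0514). Day7 was called without Day0 replicate 1 (0.42, adjusted P = 0.00161) or replicate 4 (0.35, adjusted P = 0.0178), and Day12 was called lower without replicate 2 (-0.34, adjusted P = 0.0109) or replicate 3 (-0.34, adjusted P = 0.0129).

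The upstream window of Ccn1 is shown because CCN1 is a known target of YAP/TEAD (GRCm38.p6, chr3:145649986-145650235, minus strand, 5′ to 3′). Capitals mark CATTCC, the reverse complement of the TEAD motif GGAATG, at positions -103 to -98, and TATAAA at -25 to -20.
Ccn1: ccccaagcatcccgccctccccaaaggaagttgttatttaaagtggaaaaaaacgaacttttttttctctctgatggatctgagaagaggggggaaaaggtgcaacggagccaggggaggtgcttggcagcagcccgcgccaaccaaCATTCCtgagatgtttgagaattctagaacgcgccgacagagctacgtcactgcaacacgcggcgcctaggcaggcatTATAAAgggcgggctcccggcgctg

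Such matches are common. In the same window of 32851 promoters, 12.6% held the TEAD motif GGAATG, 17.1% the SMAD motif CAGACA and 6.7% the AP-1 motif TGANTCA on either strand, 7.6% held TATAAA on the gene's strand, and 1.5% held a CArG box. Promoter sequences were matched for 5 of the 9 members. Of the 2 not shown, Sparc held 1 SMAD motif, and Thbs4 held 1 SMAD motif and 2 overlapping TEAD motifs, and 0 AP-1 motifs or CArG boxes were found in the 5. A second annotated start of Tnc, whose window overlaps the first, held 1 SMAD motif.

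Ccn2 (chromosome 10, 24595442 to 24598683, plus strand) had the narrowest range of day means of all members (1.76-fold) and was called higher on 0 of 6 wound days. It read 87.7, 25.0, 24.3 and 71.9 CPM on Day0, where replicates 1 and 4 were above and replicates 2 and 3 below every library of the wound days. The wound days lay between 29.7 ± 0.669 CPM on Day7 and 48.4 ± 2.66 CPM on Day12. No step between them was called with all libraries fitted together. When only the 8 libraries of each pair were fitted, it was called lower from Day5 to Day7 (-0.34, adjusted P = 0.00115). It was called higher from Day7 to Day10 (0.49, adjusted P = 2.04e-06) and Day10 to Day12 (0.24, adjusted P = 0.00108). From Day12 to Day14 it was called lower again (-0.39, adjusted P = 1.44e-05). Day7 was called lower than Day0 (-0.81 ± 0.24, adjusted P = 0.00552), and that call was lost without Day0 replicate 1 (-0.44, adjusted P = 0.0731). The other days were not called (adjusted P from 0.0549 to 0.727), but without Day0 replicate 2 or 3 the gene was called lower on Day3, Day5, Day10 and Day14 as well (log2 fold changes from -0.71 to -0.56). Day14 was also called lower with a filter of at least 10 counts in every library (-0.53, adjusted P = 0.0473). For the same gene the 4 libraries of Day7, at 28.8, 30.3, 30.1 and 29.6 CPM, lay below all others of the wound days. An annotated gene on the opposite strand, Gm15270, shares 665 of the 2861 exon bases of Ccn2, and whether the counting used strand is not given in the sources used here. The same holds, with 176 to 292 shared exon bases, for Fn1, Tnc and Thbs1.

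Ccn4 (chromosome 15, 66891369 to 66923201, plus strand) was the least abundant member and was higher than Day0 on all 6 wound days. It read 10.4, 6.22, 4.51 and 7.85 CPM on Day0 (174 to 394 counts) and 31.3, 33.6, 32.9 and 29.8 CPM on Day3. It reached 76.7, 81.6, 72.9 and 62.4 CPM on Day7 and 69.3, 72.0, 78.6 and 69.7 CPM on Day10, 10.1-fold and 10.0-fold that of Day0 (3.34 ± 0.14, adjusted P = 9.89e-17, and 3.32 ± 0.14, adjusted P = 1.31e-16). It fell to 32.7 ± 1.37 CPM on Day12 (-1.15 ± 0.13 against Day10, adjusted P = 2.71e-08) and 22.6 ± 1.95 on Day14, still called higher than Day0 (1.64 ± 0.14, adjusted P = 5.3e-11). No library of any wound day overlapped those of Day0, and these 6 calls and those of Tnc held under every alternative tried. The steps from Day3 to Day5 (0.43 ± 0.13, adjusted P = 0.0124) and to Day7 (0.77 ± 0.12, adjusted P = 2.46e-05) were called, the first not without Day3 replicate 4 (adjusted P = 0.0633). The libraries of Day7 and Day10 overlapped (-0.02 ± 0.12, adjusted P = 0.928).

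The proportions of the CCN genes within a library differed between days. The ratio of Ccn1 to Ccn2 FPKM was 0.914, 1.80, 1.88 and 1.01 on Day0 and 4.00, 3.73, 3.68 and 4.02 on Day3, and it was 2.45 ± 0.148 on Day7 and 0.968 ± 0.0307 on Day14. It was higher than on Day0 on Day3, Day5 and Day7 (log2 differences 1.54, 0.69 and 0.88, exact permutation test, adjusted P = 0.0373 for each), and overlapped Day0 on Day10, Day12 and Day14. The ratio of Ccn4 to Ccn2 was 0.0567, 0.119, 0.0892 and 0.0523 on Day0 and 1.27, 1.28, 1.15 and 1.00 on Day7, when Ccn4 was the more abundant transcript per length in all 4 libraries. It was higher than on Day0 on all 6 wound days (log2 differences from 1.98 to 3.97, exact permutation test, adjusted P = 0.0373 for each).

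Of the steps between wound days, whose differences do not use the Day0 libraries, those up to Day10 had called rises and falls, and those after Day10 only falls in the fit over all libraries. From Day3 to Day5, 4 members rose (Fn1, Thbs2, Sparc and Ccn4) and 2 fell (Thbs1 and Ccn1), where 12.9% and 11.4% of all genes were called higher and lower. From Day5 to Day7, 2 rose (Thbs2 and Ccn4) and 1 fell (Thbs1), with 13.9% and 14.6% of all genes. From Day7 to Day10, 2 rose (Thbs2 and Thbs4) and 1 fell (Thbs1), with 14.3% and 18% of all genes. From Day10 to Day12, 5 fell (Tnc, Thbs1, Thbs2, Ccn1 and Ccn4) and 4 were not called, with 18.7% and 20.7% of all genes. From Day12 to Day14, 5 fell (Fn1, Thbs2, Sparc, Ccn1 and Ccn4) and 4 were not called, with 19.9% and 25.3% of all genes. Of all genes called from Day5 to Day7, Day7 to Day10 and Day10 to Day12, 48.8%, 44.2% and 47.5% were higher, against 58.9%, 55.5% and 63.7% without composition normalization. With upper quartile factors the first and second of these shares were 60.4% and 54.7%. By the study's criteria in either direction, only Thbs1 from Day5 to Day7 and Tnc from Day10 to Day12 changed, where 2.91%, 3.66%, 4.61%, 6.01% and 3.57% of all genes did over the 5 steps. The median log2 change of the members over the last 2 steps was -0.57 and -0.54, against -0.02 and -0.04 over all genes. When each pair of days was fitted alone, without Day0 in the estimate of the spread, 7, 7, 5, 8 and 8 members were called over the 5 steps, where 29.4%, 30.8%, 43.3%, 53.9% and 55.2% of all genes were. Fn1 from Day10 to Day12 (-0.57 ± 0.23, adjusted P = 0.0523, libraries not overlapping) was not called, and was called with DESeq2 (adjusted P = 0.0436), upper quartile factors (adjusted P = 0.0403), no filter on low counts (adjusted P = 0.0482), the replicate block (adjusted P = 0.0445) and the 8 libraries of the 2 days alone (adjusted P = 3.99e-08). The fits of single pairs held 2 later rises, of Ccn2 from Day10 to Day12 (0.24, adjusted P = 0.00108) and of Thbs1 from Day12 to Day14 (0.13, adjusted P = 0.0297). Markers of several cell types moved over the late steps too. From Day10 to Day12, 5 of 5 endothelial and 5 of 5 neutrophil markers were called lower, 3 of 4 wound edge keratinocyte markers lower and 1 higher, and 5 of 5 hair shaft markers higher. From Day12 to Day14, 7 of 7 dermal fibroblast markers (median log2 fold change -1.24) and 5 of 5 macrophage markers (-1.52) were called lower, and 3 of 5 hair shaft markers higher. Of the skeletal muscle markers, 5 of 5 were called lower over the first of these steps and 4 of 5 over the second. Of the adipocyte markers, 4 of 5 were called lower and 1 higher over the first, and 5 of 5 higher over the second. The part of these markers in the falls of the members was not tested. Neighbours in the order of the day means of each gene were also compared by the exact permutation test, in which 0 of 54 pairs passed adjustment, and the smallest adjusted P that these values allowed was 0.0643.

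The other matricellular genes were counted over a list of 18, all tested. Against Day0, 6, 9, 8, 9, 7 and 5 of them were called higher on the 6 wound days in order and 6, 5, 5, 5, 6 and 6 lower, with median log2 fold changes of -0.02, 0.12, 0.32, 0.64, 0.38 and -0.19. Over all genes 31.8%, 29%, 25.6%, 23.5%, 21.7% and 28.2% were called higher and 34.8%, 30.6%, 24.8%, 26.9%, 25.6% and 34.5% lower, with medians of -0.03, -0.02, 0.002, -0.02, -0.04 and -0.06, and these also stand beside the receptor and signalling counts that follow. Postn (periostin), which binds collagen and tenascin-C, rose from 94.1 FPKM on Day0 to 1559.6 FPKM on Day10 (log2 fold change 4.00 ± 0.13, adjusted P = 8.49e-19). Spp1 (osteopontin) was already at 383 FPKM on Day3, up from 14.7 FPKM (log2 fold change 4.76 ± 0.34, adjusted P = 1e-12), and was at 48.5 FPKM on Day12. Fstl1 rose to 455 FPKM on Day10 from 179 FPKM (log2 fold change 1.29 ± 0.16, adjusted P = 1.46e-07). Tgfbi, a TGF-beta-induced matrix protein, was higher on Day3 (log2 fold change 0.50 ± 0.07, adjusted P = 9.67e-07) and lower on the other 5 days, at 63.3 FPKM on Day14 (log2 fold change -2.31 ± 0.08, adjusted P = 1.14e-18). Sparcl1, the closest relative of Sparc, was called lower on every wound day other than Day10 (log2 fold change -0.01), with log2 fold changes of -1.14, -0.27, -0.13, -0.43 and -0.78 on Day3, Day5, Day7, Day12 and Day14. Smoc2, another gene of the SPARC family, was lower on all 6 days, at -1.19 on Day3 and -1.42 on Day14.

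The receptors of the members were counted over a list of 15, all tested. Of these, 10, 9, 9, 6, 3 and 2 were called higher than Day0 on the 6 wound days in order and 3, 5, 4, 5, 4 and 9 lower, with median log2 fold changes of 0.38, 0.38, 0.24, 0.01, 0.09 and -0.22. Among the 6 most abundant, Lrp1, a scavenger receptor that clears thrombospondins, rose to 118 FPKM on Day3 from 44.5 FPKM (log2 fold change 1.46 ± 0.14, adjusted P = 5.75e-10). Itgb1, the common integrin beta chain, was higher from Day3 (log2 fold change 0.59 ± 0.05, adjusted P = 1.36e-10) to Day10 (log2 fold change 0.44 ± 0.05, adjusted P = 8.74e-08) and lower on Day14 (log2 fold change -0.13 ± 0.05, adjusted P = 0.0296). Cd36, which binds thrombospondin-1, was higher on all 6 days, by 0.36 to 0.82. Itgb5 was higher on Day7 (log2 fold change 0.38 ± 0.06, adjusted P = 6.9e-06) and Day10 (log2 fold change 0.36) and lower on Day14 (log2 fold change -0.22 ± 0.06, adjusted P = 0.00265). The syndecan Sdc1 was lower on Day5 and Day10 (log2 fold changes -0.27 and -0.29), higher on Day12 and Day14 (0.39 and 0.98) and not called on Day3 and Day7 (-0.07 and -0.09). Sdc4 was higher on Day3 (log2 fold change 0.14) and lower on the other 5 days, with log2 fold changes from -0.24 on Day5 to -0.84 on Day7.

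Of 16 genes of TGF-beta and YAP/TEAD signalling, all tested, 6, 4, 4, 4, 6 and 5 were called higher on the 6 wound days in order and 6, 6, 5, 5, 5 and 10 lower, with median log2 fold changes of 0.05, -0.04, -0.001, -0.05, 0.05 and -0.34. Tgfb1, the ligand, rose to 58.2 FPKM on Day3 (log2 fold change 1.13 ± 0.09, adjusted P = 7.53e-12), and its receptor Tgfbr2 was lower on Day14 (log2 fold change -0.95 ± 0.12, adjusted P = 1.3e-07). Yap1, the coactivator, was lower on Day3 (log2 fold change -0.69 ± 0.05, adjusted P = 2.29e-12) and its paralog Wwtr1 was not called on that day (log2 fold change -0.13 ± 0.08, adjusted P = 0.134). Amotl2, a target of YAP that also holds it in the cytoplasm, was lower on all 6 days, with log2 fold changes of -0.20 on Day3 and -0.64 on Day5. Tgfb3, another ligand, was at 5.17 FPKM on Day3 against 11.5 on Day0 (log2 fold change -1.10 ± 0.08, adjusted P = 1.23e-12) and at 20.2 FPKM on Day10 (log2 fold change 0.75 ± 0.08, adjusted P = 3.73e-09).

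**Figure D4:**
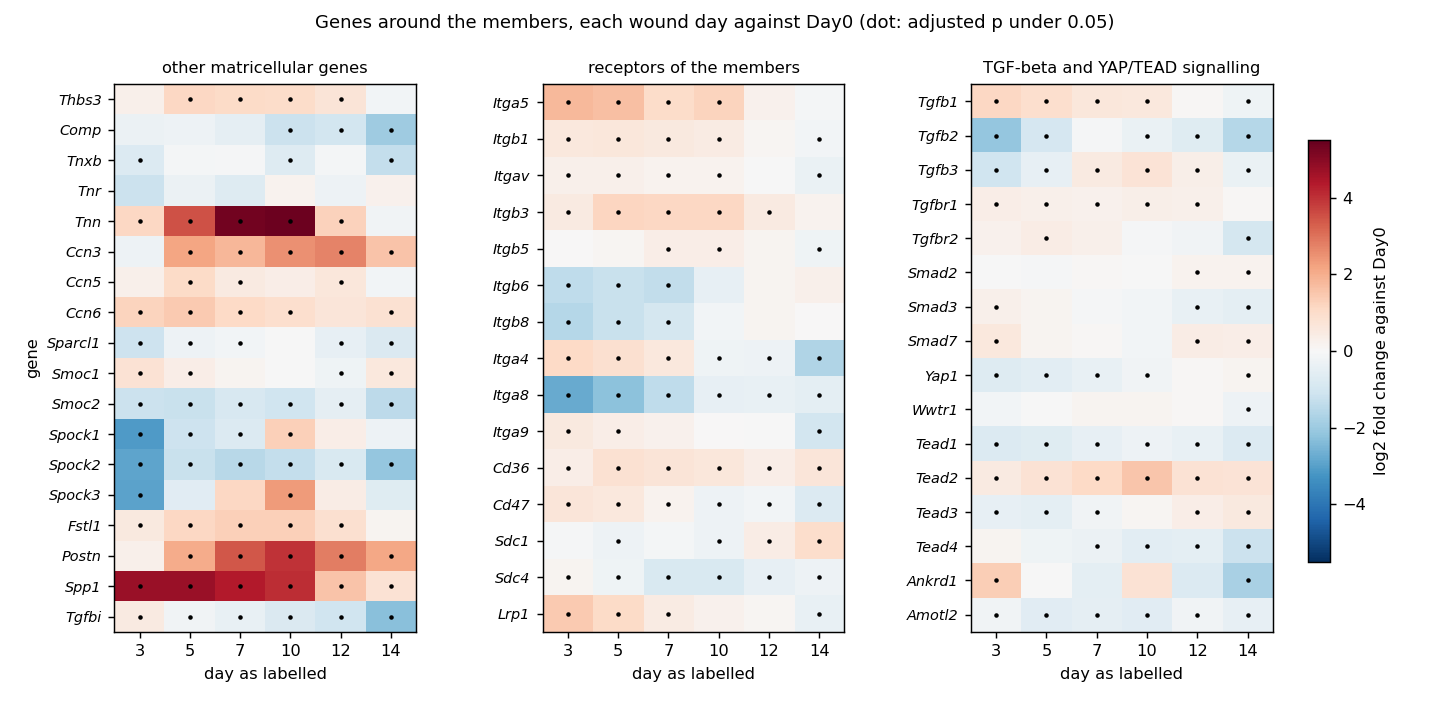
Log2 fold change against Day0 (color, red higher and blue lower) of 18 other matricellular genes, 15 receptors and 16 signalling genes on the 6 wound days, 4 libraries against 4, with a dot where the adjusted P was under 0.05. Postn is highest on Day10, Spp1 on Day3 and Day5, which hardly differ, and Smoc2 is below 0 throughout.

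The genes with the most similar curves were taken by the smallest mean absolute difference between centred day means of log2 CPM over the 7 days, among 10735 genes with a mean of at least 10 CPM. For Fn1 they were Col3a1 (0.074), C1qtnf6 (0.088) and Mrc2 (0.106), for Thbs2 Mmp11 (0.166), Lrrc17 (0.171) and Sfrp2 (0.18), and for Sparc Pcdh18 (0.064), Selenom (0.076) and Mxra7 (0.078). For Tnc they were Cstdc5 (0.208), Cemip (0.38) and Spp1 (0.429), and for Thbs1 Srgn (0.335), Car4 (0.337) and Slc2a3 (0.38). For Ccn1 they were Lrrc32 (0.099), Ggt5 (0.133) and Cpne2 (0.133), and for Ccn4 Adam12 (0.248), Col12a1 (0.258) and Adamts15 (0.27). For Thbs4 they were Fam171a2 (0.082), Tmem132a (0.084) and Fat1 (0.089), and for Ccn2 Rsbn1 (0.083), Cdkn2aip (0.091) and Zfp954 (0.091), and the medians over all genes of the same measure were 0.406 for Thbs4 and 0.264 for Ccn2, against 1.645 for Tnc. Among the members themselves the closest pairs were Sparc and Ccn2 (0.344), Fn1 and Thbs2 (0.352), Thbs4 and Ccn2 (0.354) and Fn1 and Sparc (0.356), and the most distant was Tnc and Thbs4 (1.807). Both pairs with Ccn2 were farther apart than its median of 0.264 over all genes. The medians were 0.607 for Fn1, 0.859 for Thbs2 and 0.41 for Sparc. The genes share libraries and sampling days, so these distances are a description.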

How the data were processed

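Bulk RNA-seq of 28 mouse skin samples, 4 at each of 7 days, was analysed from a table of raw counts per gene and a table of FPKM deposited by the authors. The submitters' processing notes name fastp, R 3.2.0 and the mm10 build. The aligner, the counter, the annotation and the use of strand are not given in the sources used here. The deposited FPKM equalled the count divided by a constant length per gene and the library total. 0 columns belonged to other series.

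The counts were tested with edgeR 4.0.16 (R 4.3.3) by the quasi-likelihood test with TMM library sizes, after filterByExpr on the days, with 1 fit over all 28 libraries and two-sided P values adjusted by the Benjamini-Hochberg method over 18107 genes. CPM used the same library sizes, and a prior count of 2 on the log2 scale. The study used DESeq2, which is an alternative here (1.42.0). Values were grouped by the labelled day and replicate. Neighbouring days and ratios of FPKM (pseudocount 0.01 FPKM) were compared by the exact two-sided permutation test (scipy 1.17.1 in Python 3.11.15). Depth sets the counting error only, which was small beside the spread between libraries at high counts. At low counts it could be as large as that spread, as for Ccn2 on Day7 (1115 to 1183 counts, coefficient of variation 2.25%). The fit was tested on simulated data with known changes.

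The genes named are the 9 members, the 6 genes of each list with the highest mean FPKM and the 3 genes most like each member. Marker lists are given as sums and counts of calls. A gene of the signalling list is not reported here. The members and lists were chosen with earlier results of these data known. The alternatives were other library scalings, other filters on low counts, limma 3.58.1 on log2(FPKM + 1) and log2(FPKM + 0.1), DESeq2, the study's criteria, a replicate block, fits of 8 libraries and each library left out in turn.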

Additional observations from a re-analysis of the deposited data

Results flagged for a closer look

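In each gene and day, the highest or lowest of the 4 libraries was compared with the other 3 by the size of its gap relative to the range (Dixon's limit for 4 values, 0.829). Of 63 groups of 4 values, 13 passed the limit, where chance gives about 3. Day10 replicate 3 was far above the other 3 libraries for 5 members. It stood at 2002 CPM for Fn1 (others 1619.6 to 1650.4), 239 for Thbs1 (196 to 203), 893 for Thbs2 (761 to 777), 7921 for Sparc (7293 to 7357) and 68.3 for Ccn1 (61.2 to 61.6). The dermal fibroblast markers summed to 60466 CPM in that library and to 53209 to 53621 CPM in the others of the day. Day5 replicate 4 was far below the others for Fn1 (1064 CPM against 1802 to 1894), Tnc (671 against 902 to 939) and Thbs2 (362 against 434 to 446), and above them for Ccn2 (42.1 against 36.1 to 36.9). Day7 replicate 4 was low for Thbs2 (568 CPM against 696 to 707). Day12 replicate 4 was high for Thbs4 (92.2 CPM against 76.2 to 77.8), Day14 replicate 4 was high for Ccn1 (31.3 against 29.1 to 29.2), and Day10 replicate 2 was low for Ccn2 (36.6 against 42.7 to 43.8).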

How the results depend on the processing

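Of the 57 calls over 99 comparisons of members, 43 held under every other fit judged by the adjusted P, 14 were lost under some, and 27 comparisons not called were called under some. Thbs4 and Ccn2 had no call that held under all of these fits. By the study's criteria, which ask for a larger fold change, 3, 3, 3, 2 and 2 members were called on Day3, Day5, Day10, Day12 and Day14, against 5, 6, 7, 4 and 7, and 0, 1, 0, 1 and 0 over the 5 steps between wound days, against 6, 3, 3, 5 and 5. Over all genes these criteria called 3420, 2520, 1702, 1715, 1339 and 2531 genes on the 6 days against Day0, where the adjusted P called 12064, 10779, 9130, 9129, 8557 and 11352. Over the 5 steps they called 527, 662, 834, 1088 and 646 genes, where the adjusted P called 4405, 5161, 5846, 7127 and 8180. When only the 8 libraries of a comparison were fitted, 4 members were called on Day14, where 57.2% of all genes were, and 7, 5, 8 and 8 over the last 4 steps, where 30.8%, 43.3%, 53.9% and 55.2% were. Calls lost with these 8 libraries were those of Fn1 on Day5 and Day14 (adjusted P = 0.0699 and 0.149), Ccn1 on Day5 and Day10 (0.0816 and 0.171), Ccn2 on Day7 (0.111), Thbs1 on Day14 (0.112) and Thbs4 on Day10, Day12 and Day14 (0.182, 0.206 and 0.131). The log2 fold changes moved little. In the same order they were 0.90 and -0.61, 0.40 and 0.32, -0.84, 0.59, and 0.58, 0.56 and 0.63. Limma on FPKM lost Fn1 on Day14 (adjusted P from 0.166 to 0.267), Ccn2 on Day7 (0.0928 and 0.0935) and Sparc from Day3 to Day5 (from 0.0529 to 0.118), and called Fn1 and Thbs1 higher on Day12 and, at a mean FPKM of at least 1, Ccn1 on Day7 (0.29, adjusted P = 0.0318). The Day12 calls were also made by edgeR without composition normalization (0.56 with adjusted P = 0.0436 for Fn1, and 0.57 with adjusted P = 0.0128 for Thbs1), and upper quartile factors called Thbs1 (0.44, adjusted P = 0.0454). The cause was not tested. With each library left out in turn, 1 to 2 members were called from Day7 to Day10.

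Small log2 fold changes that were not called changed sign under some settings. Without composition normalization, the values were 0.018 for Sparc on Day10, 0.037 for Ccn2 on Day12, 0.092 for Thbs2 on Day14, 0.032 for Ccn4 from Day7 to Day10, and 0.088 and -0.011 for Thbs4 from Day10 to Day12 and Day12 to Day14. With limma on log2(FPKM + 1), also with a mean FPKM of at least 1, they were 0.13 for Thbs4 on Day7, 0.21 and 0.11 for Sparc on Day10 and Day12, 0.25 for Ccn2 on Day12, 0.11 for Thbs2 on Day14, 0.034 for Ccn4 from Day7 to Day10, and 0.085 and -0.008 for Thbs4 over the last 2 steps. With log2(FPKM + 0.1) the same 8 values were 0.14, 0.21, 0.11, 0.27, 0.11, 0.037, 0.088 and -0.0082. Upper quartile factors gave 0.016 for Thbs2 on Day14, 0.0022 for Ccn2 from Day3 to Day5 and 0.027 for Ccn4 from Day7 to Day10. No filter on low counts gave 0.0032 for Thbs2 on Day14 and 0.0065 for Ccn4 from Day7 to Day10. The 8 libraries alone gave -0.011 for Sparc on Day7, 0.035 for Thbs2 on Day14 and 0.0083 for Thbs4 from Day10 to Day12. The median log2 fold change over all genes moved by over 0.1 in 4 fits, up by 0.144 on Day12 and 0.126 on Day14 without composition normalization, and by 0.148 and 0.153 with limma at a mean FPKM of at least 1. Relative to these shifts the values of Thbs2 on Day14 and Ccn2 on Day12 under the first scaling stayed below 0.

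With each library left out in turn, log2 fold changes not called with all libraries changed sign, and those of Thbs4 on Day3, Day5 and Day7, Sparc on Day12 and Ccn2 on Day10 were called at 1 end. They ranged from -0.32 to 0.12 for Fn1 on Day3, -0.22 to 0.031 for Thbs2 on Day3, -0.071 to 0.17 for Thbs2 on Day14, -0.53 to 0.20 for Thbs4 on Day3, -0.42 to 0.28 for Thbs4 on Day5, -0.21 to 0.46 for Thbs4 on Day7, -0.076 to 0.077 for Thbs4 from Day10 to Day12. They ranged from -0.049 to 0.088 for Thbs4 from Day12 to Day14, -0.23 to 0.28 for Sparc on Day7, -0.30 to 0.21 for Sparc on Day10, -0.47 to 0.026 for Sparc on Day12, -0.57 to 0.042 for Ccn2 on Day10, -0.34 to 0.28 for Ccn2 on Day12, -0.083 to 0.036 for Ccn4 from Day7 to Day10. The log2 difference of the ratio of Thbs4 to Thbs2 on Day3 ranged from -0.19 to 0.19.

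Replicate numbers did not pair the libraries. The correlation of deviations over 84 pairs of same-numbered libraries ran from -0.08 to 0.18 (median -0.001), and 1 pair was over 0.1. With the replicate block, Thbs4 on Day7 was 0.012 and Sparc on Day10 0.019, both not called, Fn1 from Day10 to Day12 was called lower (-0.55, adjusted P = 0.0445), and the block changed no other call of a member.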
